A study of Mus musculus with 10 samples.

Results

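Genes whose products remove introns from messenger RNA precursors were followed in the visceral fat of mice labelled aADM2-tg, which overexpress adrenomedullin 2 in adipose tissue, and of mice labelled WT. The members are the entries of the count table that carry the gene ontology term for mRNA splicing by the spliceosome, without those that also carry rRNA processing and without symbols that start with Hsp. The term stands on 422 entries. Of these, 3 left for rRNA processing (the helicase gene Mtrex and the exon junction genes Eif4a3 and Eif4a3l1) and 0 for their symbol, which gave 419 members of 56691 genes. By gene ID, 194 members are protein coding and 225 are pseudogenes in GENCODE M21. Counts were 0 in every library for 138 members, and 184 (165 coding, 19 pseudogenes) passed the filter on low counts, so 29 coding members and 206 pseudogenes were not tested. All 10 mice were male, 10 weeks old and fed chow for 8 weeks, with 5 mice in each group and 1 poly(A)-selected RNA library per mouse (tg1 to tg5 and WT1 to WT5). The labels name neither the promoter that drives the transgene nor the number of founder lines. The comparison of aADM2-tg with WT asks how the labelled overexpression bears on the transcripts of fat.

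The spliceosome is built anew on each intron from small nuclear ribonucleoproteins (snRNPs) and many further proteins. U1 marks the start of the intron, U2 its branch site, and the U4/U6 and U5 tri-snRNP then joins and is remodelled by RNA helicases into the catalytic form, with the help of the Prp19 complex. SR proteins mostly promote the use of nearby splice sites and hnRNP proteins often repress it, and the exon junction complex stays on the spliced RNA. Fat, like every tissue, uses these genes at all times, and SR proteins are known to take part in alternative splicing during adipocyte development.

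The libraries held 16030435 to 18214504 counted reads in aADM2-tg and 16921357 to 18064306 in WT. Members took 1.08 to 1.23% of the reads in aADM2-tg and 1.07 to 1.16% in WT. Adm2 itself had 0 counts in all 5 aADM2-tg libraries and 0, 0, 2, 0 and 0 in WT1 to WT5, and a count of 0 allows a level of up to 3 counts, which is 0.165 to 0.187 counts per 1000000 reads (CPM). The overexpression was therefore not seen in these counts, and the first of the 2 header lines of the table names the columns in the opposite sense to the labels, so aADM2-tg and WT mean here the libraries so labelled. Libraries also differed in RNA of duct and ciliated epithelium: the summed level of 28 such markers was 34.9 to 83.2 normalised CPM in tg1, tg3, tg4 and tg5 but 682 in tg2, and 54.45 in WT1 but 245 to 510 in WT2 to WT5. Of the 28, 0 passed edgeR's test between the groups, and 0 had an unadjusted p under 0.05. The label mature adipocyte names the cell type, and Adipoq and Plin1 were high in every library, but 11 of 11 proliferation markers fell in aADM2-tg (summed level 32.2 to 44.0 normalised CPM, against 69.1 to 175.8 in WT), 9 of 12 tested male germ cell markers fell, 7 of 12 progenitor markers fell with 1 rising, and 4 of 12 macrophage markers fell (summed level 716 to 1176 normalised CPM in aADM2-tg, against 1193 to 1542 in WT). In the other direction 9 of 16 adipocyte, 4 of 11 endothelial and 2 of 9 tested lymphocyte markers rose. The part of these cell types in the results below was not tested, apart from duct RNA. In whole tissue, fewer cells of a type and less RNA per cell cannot be told apart.

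Transcripts of the splicing genes that carry the ontology term were mostly a little more abundant in the aADM2-tg libraries. Splicing factors listed by role that lack the term, given at the end of the Results, lay nearer to all tested genes. Of 184 tested members, 70 rose (38.0%), 8 fell (4.35%) and 106 did not pass the test (edgeR quasi-likelihood test, Benjamini-Hochberg adjusted over all 16591 tested genes, threshold 0.05), whereas 13.8% of all tested genes rose and 12.7% fell. With library totals and no scaling factor the split was 42 higher and 11 lower, beside 10.3% and 14.1% of all tested genes. The median log2 change of the members was 0.21 (aADM2-tg over WT), beside 0.018 for all tested genes, and 77.7% of members lay above 0, beside 51.9% of all genes. The changes were small: between -0.98 and 0.90 on the log2 scale, with 0 of 184 members changed 2-fold, while 1252 of the 16591 genes were. Every aADM2-tg library lay above every WT library for 47 tested members (25.5%), beside 8.42% of all tested genes, and below for 7 (3.8%), beside 9.23%.

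**Figure D1:**
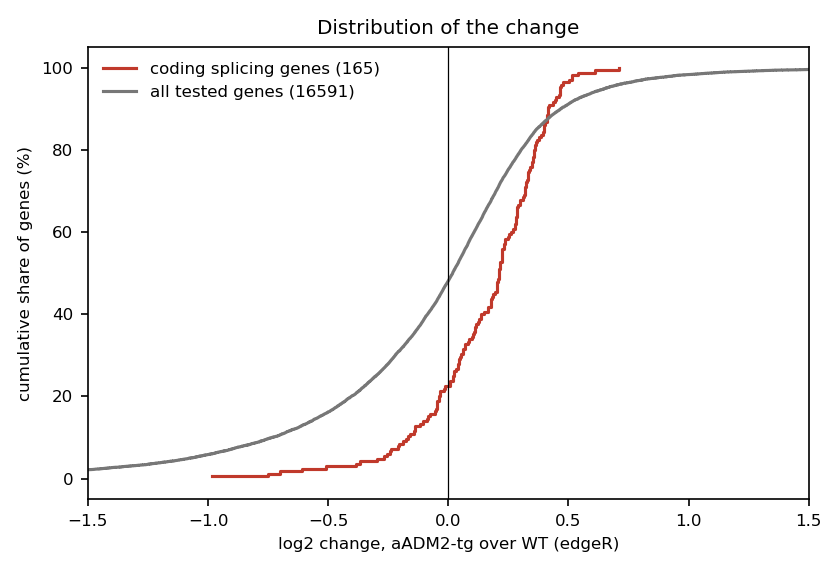
Cumulative share of genes (percent, vertical axis) against the log2 change of aADM2-tg over WT (horizontal axis) for the 165 tested coding splicing genes (red) and all 16591 tested genes (grey). The red curve is narrower and lies to the right of the grey one around 0, with medians of 0.21 and 0.018.

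After scaling of the library totals, the shift of the coding members as a whole was seen in every mouse. Against each gene's mean over the 10 libraries, the median deviation of the 165 coding members was 0.050, 0.024, 0.091, 0.14 and 0.13 on the log2 scale in tg1 to tg5, against -0.059, -0.097, -0.11, -0.087 and -0.076 in WT1 to WT5. All aADM2-tg libraries lay above 0 and all WT libraries below it. This rests on the scaling: of the unscaled reads, all members took 1.08% in tg3, below the 1.14 to 1.16% of WT2 to WT5. The library with most duct RNA among the aADM2-tg mice (tg2) was the lowest of its group, and the WT library with least (WT1) was the highest of its group. Over all tested genes the same medians lay between -0.012 and 0.0072. The median coefficient of variation of the coding members was 10.4% in aADM2-tg and 6.33% in WT, beside 17.1% and 11.6% over all tested genes. These sets were not matched for level, and whether the difference goes with level was not tested. Leaving out 1 library in turn gave from 43 (without WT3) to 83 (without tg2) higher members and from 4 (without tg1 or without WT3) to 12 (without tg2) lower ones; 37 of the genes that rose and 3 that fell, among them Rbm41 and Cwf19l2, were called in all 10 such fits. Counts over all tested genes also moved with the library left out, as given in the last section. The share of all called genes that kept their call in all 10 fits is not given here, so 37 and 3 have no background. The summed level of all 419 members was 11939 ± 292 normalised CPM in aADM2-tg and 11090 ± 155 in WT (SD, n = 5 each).

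**Figure D2:**
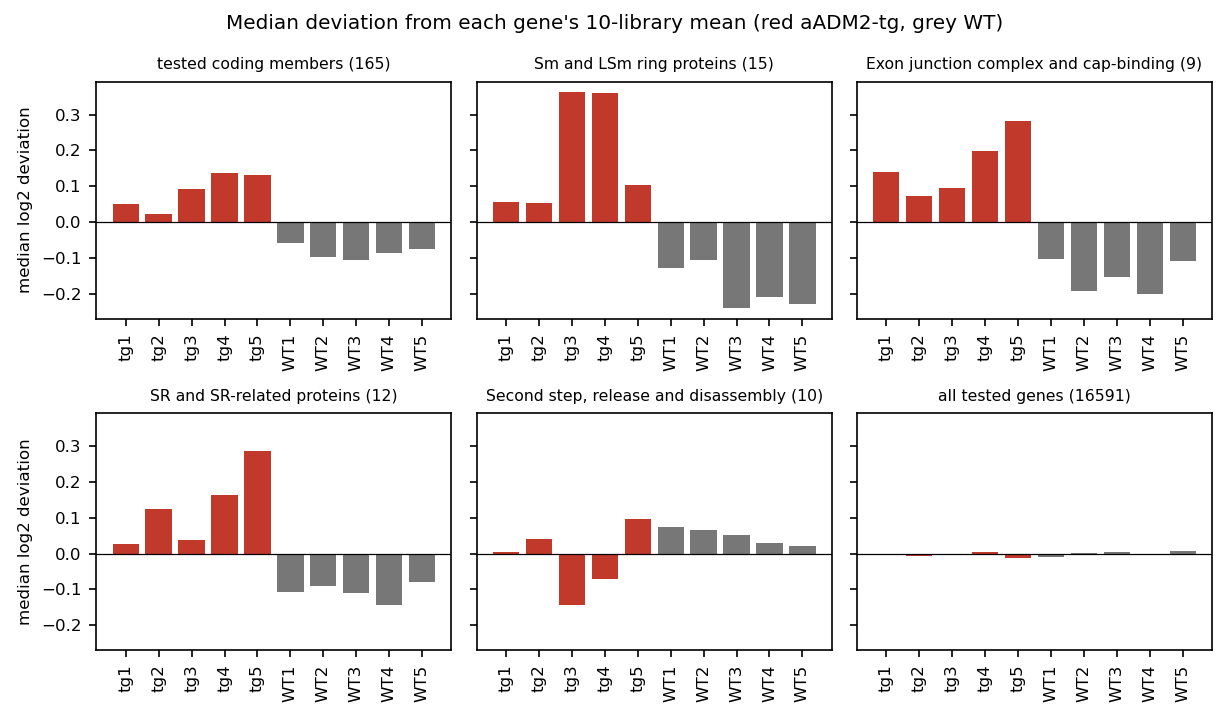
Median log2 deviation (vertical axis) from each gene's mean over the 10 libraries, 1 bar per library, for the coding members, 4 classes of them and all tested genes, with aADM2-tg in red and WT in grey and the number of genes in each title. In the panel of all 165 coding members the 5 red bars are above 0 (0.024 to 0.14) and the 5 grey bars below it; the second-step class has 2 of 5 red bars below 0.

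With the duct score (the mean log2 CPM of the 28 markers) as a term beside group, 24 members were higher and 1, Rbm41, was lower, beside 5.12% and 8.09% of all tested genes. All 70 genes that had risen stayed above 0 and all 8 that had fallen stayed below it. These genes were selected by their change in the same libraries, so their kept sign is no separate support. Without WT1 and tg2, 75 members were higher (41.2%) and 11 lower (6.04%), beside 19.2% and 21.7% of all tested genes. In that fit the duct score was -1.26 to -0.51 in aADM2-tg and 2.84 to 3.88 in WT. Group and duct RNA cannot be told apart there. Of the 5 libraries low in duct RNA, 4 were aADM2-tg and 1 was WT, and the lone WT library is assumed to vary like the others. Among these libraries edgeR called 0 members, beside 0.00574% of all tested genes higher and 0.195% lower. The median log2 change there was 0.161 for the members and 0.0221 for all tested genes. With 1 WT library, that fit cannot decide whether the members rose.

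The calls by class moved with the libraries used. With the duct score as a term, 2 genes of the Sm and LSm rings (which clasp the snRNAs), 0 U1, 2 U2, 2 tri-snRNP and 2 Prp19 genes were higher, against 9, 2, 11, 9 and 12 with group alone, while 5 of 7 exon junction and 5 of 7 SR genes were still called. Leaving out 1 library in turn gave 4 to 12 ring genes higher, with 4 without tg3 or tg4 and 5 without WT3 or WT4. For the U2 class this range was 4 to 12 (4 without WT5, 5 without WT2, 6 without tg4 or WT3) and for the tri-snRNP 5 to 13 (5 without tg3, tg4 or WT3). For the Prp19 class it was 4 to 13, with 4 without WT3, 5 without tg3 or WT5, 6 without WT2 or WT4 and 7 without tg4. The exon junction class kept a count of 5 to 7 and the SR class one of 5 to 7. Of the 78 called members, 18 overlap a gene that has at least 10% of their counts, and in 7 that gene had more counts than the member: Ddx39a, Snrpd3, Mettl3, Smu1, Gcfc2 and Raver2, each on the opposite strand, and Txnl4a on the same strand. Reads of such pairs may have been divided or shared.

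Promoters are shown for 6 members that recur below: Snrnp70, Snrpe, Ddx39b, Lsm7 and Srsf3, which rose, and Rbm41, the deepest fall. Each is 300 bases of RefSeq sequence on GRCm38.p6, from 250 bases before to 50 after the annotated start, on the strand of the gene. Capitals mark matches, on either strand, to 5 motifs: ETS (CCGGAAG), NRF1 (CGCATGCG), CRE (TGACGTCA), the core of the heat shock element (GAANNTTC) and YY1 (AAGATGGCG).
Snrnp70 promoter (chr7:45395693-45395992, minus strand): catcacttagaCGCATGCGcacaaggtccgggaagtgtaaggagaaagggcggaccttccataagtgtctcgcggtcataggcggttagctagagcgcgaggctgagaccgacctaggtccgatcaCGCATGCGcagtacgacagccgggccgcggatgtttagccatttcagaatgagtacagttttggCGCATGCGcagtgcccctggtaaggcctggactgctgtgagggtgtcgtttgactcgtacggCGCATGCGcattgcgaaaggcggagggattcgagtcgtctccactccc
Snrpe promoter (chr1:133610231-133610530, minus strand): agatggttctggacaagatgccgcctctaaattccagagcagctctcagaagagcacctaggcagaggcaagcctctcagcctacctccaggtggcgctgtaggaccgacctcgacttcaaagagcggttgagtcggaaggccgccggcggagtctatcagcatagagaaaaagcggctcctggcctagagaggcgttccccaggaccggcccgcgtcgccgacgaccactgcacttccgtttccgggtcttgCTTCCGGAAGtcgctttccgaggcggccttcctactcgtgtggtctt
Ddx39b promoter (chr17:35241496-35241795, plus strand): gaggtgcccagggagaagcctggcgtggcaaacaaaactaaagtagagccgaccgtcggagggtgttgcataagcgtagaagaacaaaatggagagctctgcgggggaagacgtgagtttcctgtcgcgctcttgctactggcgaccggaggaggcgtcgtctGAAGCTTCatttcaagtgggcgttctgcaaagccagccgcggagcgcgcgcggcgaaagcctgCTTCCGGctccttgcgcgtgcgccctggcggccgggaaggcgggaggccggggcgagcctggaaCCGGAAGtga
Lsm7 promoter (chr10:80855160-80855459, minus strand): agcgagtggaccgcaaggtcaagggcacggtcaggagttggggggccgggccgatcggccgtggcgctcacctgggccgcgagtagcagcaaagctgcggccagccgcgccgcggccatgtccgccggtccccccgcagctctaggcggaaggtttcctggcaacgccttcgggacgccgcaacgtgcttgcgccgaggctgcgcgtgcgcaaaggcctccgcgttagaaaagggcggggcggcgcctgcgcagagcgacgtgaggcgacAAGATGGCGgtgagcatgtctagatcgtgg
Srsf3 promoter (chr17:29032410-29032709, plus strand): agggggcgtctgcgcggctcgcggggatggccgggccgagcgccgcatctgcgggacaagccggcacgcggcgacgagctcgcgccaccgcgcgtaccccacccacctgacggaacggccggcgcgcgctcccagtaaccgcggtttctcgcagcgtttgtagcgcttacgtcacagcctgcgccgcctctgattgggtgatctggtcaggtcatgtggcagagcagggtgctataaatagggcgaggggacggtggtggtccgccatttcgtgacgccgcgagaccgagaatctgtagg
Rbm41 promoter (chrX:139998546-139998845, minus strand): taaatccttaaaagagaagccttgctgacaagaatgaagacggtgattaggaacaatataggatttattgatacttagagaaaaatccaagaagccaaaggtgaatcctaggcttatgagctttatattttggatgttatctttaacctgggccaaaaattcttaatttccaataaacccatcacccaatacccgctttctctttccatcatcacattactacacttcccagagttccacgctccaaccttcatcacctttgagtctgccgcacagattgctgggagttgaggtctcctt
Snrnp70 holds the NRF1 motif 4 times, Snrpe holds 2 overlapping ETS matches on opposite strands just after the start, Ddx39b holds 2 ETS matches and 1 heat shock core, and Lsm7 holds a YY1 match after the start. Srsf3 and Rbm41 hold none of the 5, which says only that these letters are not in these windows. Over the 165 tested coding members 132 had a window in the table (the first listed for each symbol). The ETS letters stood in 33.3% of these windows, beside 16.8% of the 11771 tested genes with a window. NRF1 stood in 6.82%, beside 3.55%, CRE in 6.06%, beside 3.01%, the heat shock core in 9.09%, beside 5.67%, and YY1 in 2.27%, beside 2.88%. In 1 of the 132 windows matches of different motifs overlapped. Among members that rose, 16 of 51 windows held ETS (31.4%), near the share of all members, and 8 held the heat shock core (15.7%). None of the 6 windows of members that fell held any of the 5 motifs, beside 64 of the 132 member windows. So few windows cannot show a difference. The median GC content of these 6 windows was 48.3%, beside 60.0% for members that rose and 60.3% for all tested genes. A match is a run of letters, not a site shown to be bound.

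**Figure D3:**
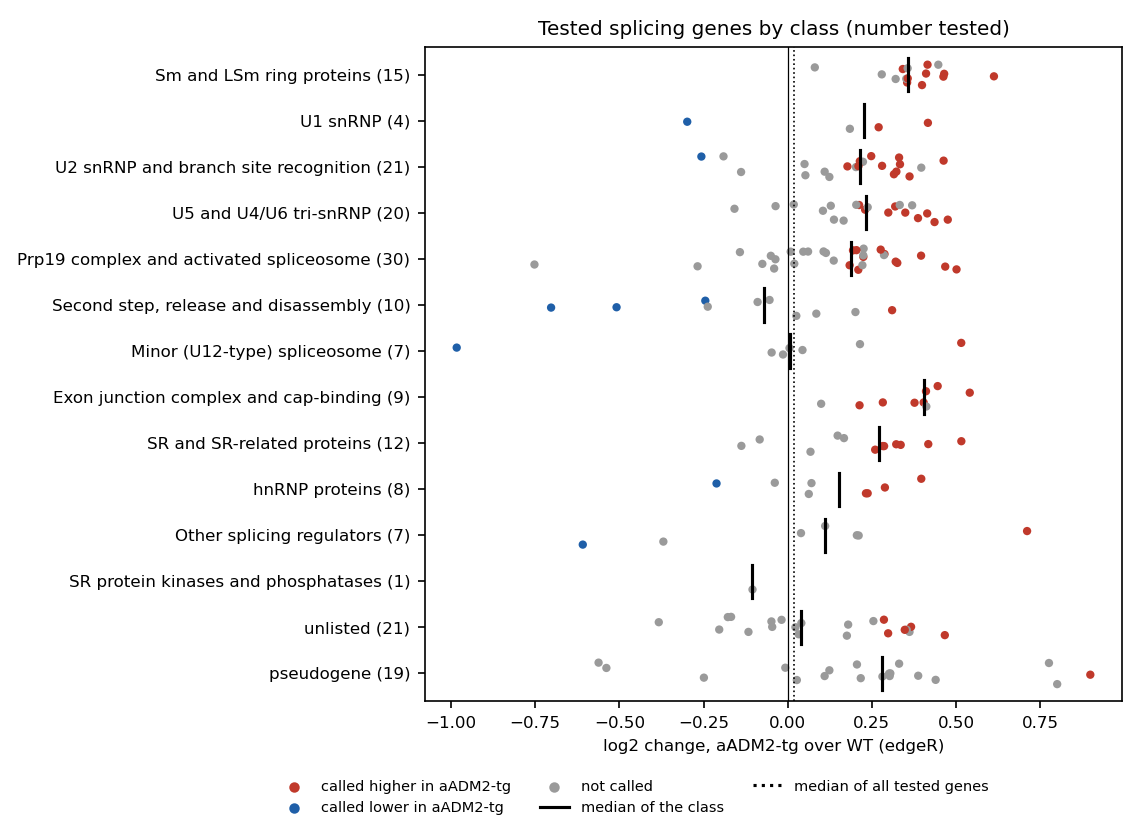
Log2 change of aADM2-tg over WT (horizontal axis) of the 184 tested members by class (rows, number tested in brackets), 1 point per gene, red where called higher, blue where called lower and grey where not called. The short black lines are class medians and the dotted line is the median of all tested genes. The exon junction and Sm rows lie farthest right (0.40 and 0.36). The second-step row has a median of -0.072. With the trend of each library with gene length removed it is 0.057, beside 0.145 for all tested genes.

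Most genes of the rings that clasp the snRNAs were higher in aADM2-tg. Sm proteins form the ring around U1, U2, U4 and U5 RNA and LSm proteins the ring at the end of U6 RNA. Of 15 tested ring genes, 9 rose and 0 fell, and all 15 log2 changes were above 0 (median 0.36). Lsm7 stood at 11.4, 9.87, 13.5, 13.8 and 10.3 normalised CPM in tg1 to tg5, against 7.58, 7.57, 8.03, 8.06 and 7.27 in WT1 to WT5. It encodes a subunit of the U6 ring, and its lowest aADM2-tg library stood above its highest WT library. The mean of Lsm7 was 11.8 ± 1.80 in aADM2-tg and 7.70 ± 0.336 in WT (SD, n = 5 each; log2 change 0.61, SE 0.12, edgeR adjusted p = 0.00552). Its gene is at chromosome 10, 80688655 to 80691043, in the coordinates of the table, whose build no label or header names. Snrpb had 52.8, 48.2, 57.9, 59.6 and 61.5 normalised CPM in tg1 to tg5, against 40.3, 40.1, 44.5, 36.1 and 42.1 in WT1 to WT5. It encodes SmB, and the groups did not overlap. Snrpb averaged 56.01 ± 5.42 in aADM2-tg and 40.6 ± 3.07 in WT (SD, n = 5 each), with a log2 change of 0.46 (SE 0.081, edgeR adjusted p = 0.00361). The Sm genes Snrpd1 (22.97 in aADM2-tg, 17.3 in WT), Snrpd3 (34.4 in aADM2-tg, 27.1 in WT) and Snrpf (10.5 in aADM2-tg, 8.23 in WT) and the LSm gene Lsm4 (16.2 in aADM2-tg, 12.6 in WT) also rose without overlap; here and below, a pair of values in brackets gives the group means in normalised CPM. Snrpd2, Snrpe and Lsm3 rose with overlap. Snrpg (log2 change 0.36), Lsm5 (log2 change 0.45), Lsm6 (log2 change 0.35), Lsm2, Snrpn and Lsm8 (log2 change 0.080) did not pass the test. The summed level of the ring genes was highest in tg3 and tg4 (366 and 360.4 normalised CPM) and 298, 284 and 308 in tg1, tg2 and tg5, against 239 to 260.0 in WT. Processed copies among the members summed to 29.3% of the level of Lsm5, 14.1% of Lsm7, 13.6% of Snrpg, 11.3% of Snrpf and 8.61% of Snrpe, so reads of these genes may be divided.

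U1 recognises the start of the intron. Of the 4 members listed for it, 2 rose and 1 fell. For Snrnp70, tg1 to tg5 gave 260.2, 214, 206, 254 and 293 normalised CPM, against 186, 170.4, 186, 178 and 199.9 in WT1 to WT5. It encodes U1-70K, which holds the U1 RNA and is a target of SR proteins. Means were 246 ± 35.7 in aADM2-tg and 184 ± 11.01 in WT (SD, n = 5 each), a log2 change of 0.42 (SE 0.10, edgeR adjusted p = 0.0120). The 5 aADM2-tg libraries lay above the 5 WT libraries, with tg5 the highest and tg3 the lowest of their group. Snrpa, a U1 protein gene, rose as well (32.5 in aADM2-tg, 26.97 in WT; log2 change 0.27). It overlaps BC024978 on the opposite strand, and whether counting used strand is stated nowhere in the labels or headers. Prpf40b did not pass the test (log2 change 0.18).

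U2 and its partners recognise the branch site and the end of the intron. Of 21 genes 11 rose and 1 fell. U2af2 stood at 119, 93.9, 106, 110.5 and 121 normalised CPM in tg1 to tg5, against 88.9, 81.8, 84.1, 87.9 and 85.8 in WT1 to WT5. It encodes the large subunit of U2AF, which binds the pyrimidine tract, and its lowest aADM2-tg library, tg2, stood above all WT libraries. The mean of U2af2 was 110.1 ± 11 in aADM2-tg and 85.7 ± 2.87 in WT (SD, n = 5 each; log2 change 0.36, SE 0.071, edgeR adjusted p = 0.00592). The small subunit gene U2af1, whose product reads the intron's last bases, rose by less (log2 change 0.21), and its adjusted p was above 0.05 in 9 of the 10 fits that leave out a library. Within the SF3a and SF3b complexes, which sit on the branch site, 6 of 10 genes rose: Sf3a1 (43.1 in aADM2-tg, 35.5 in WT), Sf3a3 (39.2 in aADM2-tg, 31.5 in WT), Sf3b2 (151 in aADM2-tg, 134 in WT), Sf3b5 (18.1 in aADM2-tg, 13.1 in WT), Sf3b6 (40.7 in aADM2-tg, 32.3 in WT) and Phf5a (24.9 in aADM2-tg, 19.9 in WT). Sf3b1 had 292, 351, 334, 346 and 314 normalised CPM in tg1 to tg5, against 395, 369, 358, 365 and 381 in WT1 to WT5. This is the largest subunit and the one that holds the branch site, and its aADM2-tg libraries all lay below its WT libraries, yet it did not pass the threshold. Sf3b1 averaged 327 ± 24.3 in aADM2-tg and 374 ± 14.3 in WT (SD, n = 5 each), with a log2 change of -0.19 (SE 0.065, edgeR adjusted p = 0.0504). Rbm5, an RNA-binding regulator of exon choice found in early spliceosomes, fell (153 in aADM2-tg, 183 in WT; log2 change -0.26), while Rbm17 rose (61.1 in aADM2-tg, 51.5 in WT) and Rbm10 did not pass (log2 change 0.20).

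The tri-snRNP brings the future catalytic centre. Of 20 genes 9 rose and 0 fell (median 0.23). For Snu13, tg1 to tg5 gave 57.7, 47.6, 68.3, 59.7 and 58.7 normalised CPM, against 45.1, 40.5, 41.3, 40.8 and 42.2 in WT1 to WT5. Its product binds the kink of U4 RNA and also sits in small nucleolar RNPs; tg2 was the lowest aADM2-tg library and still above every WT library. Means were 58.4 ± 7.38 in aADM2-tg and 42.00 ± 1.86 in WT (SD, n = 5 each), a log2 change of 0.48 (SE 0.086, edgeR adjusted p = 0.00411). Sart1 stood at 65.6, 59.7, 62.2, 65.6 and 66.95 normalised CPM in tg1 to tg5, against 51.4, 47.4, 51.4, 51.2 and 55.2 in WT1 to WT5. It is needed to recruit the tri-snRNP, and the groups did not overlap. The mean of Sart1 was 64.01 ± 2.99 in aADM2-tg and 51.3 ± 2.78 in WT (SD, n = 5 each; log2 change 0.32, SE 0.057, edgeR adjusted p = 0.00388). Prpf31, the bridge between U4/U6 and U5, rose (27.6 in aADM2-tg, 22.5 in WT), as did Prpf3 (30.6 in aADM2-tg, 24.1 in WT) and Eftud2, the U5 GTPase gene (59.3 in aADM2-tg, 51.2 in WT). Among the large subunits, Prpf8, the scaffold of the active site, had a mean of 213 in aADM2-tg, 238 in WT (adjusted p = 0.110) and Snrnp200, the helicase that unwinds U4 from U6, had a mean of 126 in aADM2-tg, 129 in WT (adjusted p = 0.697), and neither passed the test. Snu13 has 11 processed copies among the members, with 0.568% of its level in sum.

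The Prp19 complex and the proteins of the activated spliceosome were the largest class, with 30 tested genes of which 12 rose and 0 fell (median 0.19). Dhx16 had 38.2, 31.6, 31.97, 33.6 and 35.3 normalised CPM in tg1 to tg5, against 26.4, 26.5, 24.03, 23.3 and 23.1 in WT1 to WT5. It encodes the helicase that makes the spliceosome catalytically active, and it rose with no overlap. Dhx16 averaged 34.1 ± 2.74 in aADM2-tg and 24.7 ± 1.68 in WT (SD, n = 5 each), with a log2 change of 0.47 (SE 0.073, edgeR adjusted p = 0.00235). Xab2, a scaffold next to the intron, rose (37.3 in aADM2-tg, 29.8 in WT; log2 change 0.33). The ubiquitin ligase gene Prpf19 (67.96 in aADM2-tg, 59.4 in WT), Plrg1 (29.2 in aADM2-tg, 25.02 in WT) and Bcas2 (47.7 in aADM2-tg, 41.3 in WT) rose, while Cdc5l, the remaining core subunit, had a mean of 45.8 in aADM2-tg, 42.6 in WT and did not pass (adjusted p = 0.168). The cyclophilin gene Ppie rose (18.8 in aADM2-tg, 13.2 in WT; log2 change 0.50), and Ppil3 rose (20.1 in aADM2-tg, 16.6 in WT). Srrm2, which organises nuclear speckles, was the most abundant of the class and the most spread in aADM2-tg. For Srrm2, tg1 to tg5 gave 527, 556, 362, 454 and 664 normalised CPM, against 572, 594, 647, 606 and 666 in WT1 to WT5. The groups overlapped and it did not pass the test (log2 change -0.27, adjusted p = 0.170).

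In the class for the second catalytic step, release of the mRNA and disassembly, 1 of 10 genes rose and 3 fell (median -0.072). Beside this, 13.8% of all tested genes rose and 12.7% fell, and in 10 genes a few calls can lie near these shares. With the duct score as a term the falls were not called (1 higher, 0 lower, median -0.091). Nor were they with the length trend removed (1 higher, 0 lower), where the class median turned to 0.057. That correction moved the median of all tested genes from 0.018 to 0.145, so the class lay below it in both fits. Without tg3 or without WT3 1 gene was called lower. Cwf19l2 had 20.2, 29.2, 24.96, 25.8 and 17.4 normalised CPM in tg1 to tg5, against 32.6, 35.99, 31.4, 31.9 and 35.4 in WT1 to WT5. Its product belongs to the late spliceosome and the handling of the lariat, and all aADM2-tg libraries lay below all WT libraries. Cwf19l2 averaged 23.5 ± 4.70 in aADM2-tg and 33.5 ± 2.10 in WT (SD, n = 5 each), with a log2 change of -0.51 (SE 0.13, edgeR adjusted p = 0.0154). Gcfc2 (4.85 in aADM2-tg, 7.91 in WT; log2 change -0.70) and Cdc40, a factor of the second step (48.03 in aADM2-tg, 56.9 in WT; log2 change -0.24), fell with overlap between the groups. The helicase gene Ddx41 rose (24.9 in aADM2-tg, 20.1 in WT; log2 change 0.31). The release helicase gene Dhx8 (log2 change -0.089), Dhx38 (log2 change 0.085) and the lariat debranching gene Dbr1 (log2 change 0.026) did not pass the test. The summed level of the class was 228.6 ± 5.59 normalised CPM in aADM2-tg and 245.9 ± 4.33 in WT (SD, n = 5 each). Its median deviation per library overlapped between the groups. It was 0.0037, 0.0402, -0.143, -0.071 and 0.0978 in tg1 to tg5, against 0.0215 (WT5) to 0.0728 (WT1) in WT.

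The minor spliceosome removes a rare class of introns with its own snRNAs. Of 7 genes 1 rose and 1 fell. For Rbm41, tg1 to tg5 gave 2.70, 7.07, 5.92, 3.58 and 4.56 normalised CPM, against 10.1, 10.4, 7.97, 8.55 and 10.2 in WT1 to WT5. It encodes an RNA-binding protein related to the U11/U12 protein of Rnpc3, and every aADM2-tg library lay below every WT library. Means were 4.77 ± 1.76 in aADM2-tg and 9.43 ± 1.09 in WT (SD, n = 5 each), a log2 change of -0.98 (SE 0.24, edgeR adjusted p = 0.0140). This was the deepest fall among the members, and the gene is at X, 138790260 to 138899344, in the table's coordinates. Snrnp25, a U11 protein gene, rose at a low level (4.37 in aADM2-tg, 3.05 in WT; log2 change 0.52), with an adjusted p above 0.05 in 8 of the 10 fits that leave out a library. Rnpc3 (log2 change -0.048), Snrnp35 (log2 change 0.0053), Zrsr1 (log2 change -0.014), Zrsr2 (log2 change 0.044) and Zcrb1 (log2 change 0.21) did not pass the test; Rnpc3 overlaps Amy1 on its own strand, which had more counts.

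Of 9 exon junction and cap-binding genes 7 rose and 0 fell, with a median of 0.40. This was the largest class median with group alone and all 10 libraries, but the ring class was above it in 8 of 21 fits. Rbm8a stood at 65.05, 51.4, 79.1, 61.8 and 69.05 normalised CPM in tg1 to tg5, against 50.98, 42.5, 40.7, 46.7 and 43.4 in WT1 to WT5. It encodes Y14, which with Magoh forms the clamp of the exon junction complex, and no aADM2-tg library was as low as the highest WT library. The mean of Rbm8a was 65.3 ± 10.1 in aADM2-tg and 44.9 ± 4.05 in WT (SD, n = 5 each; log2 change 0.54, SE 0.11, edgeR adjusted p = 0.00627). Magoh rose (27.6 in aADM2-tg, 20.9 in WT), and its near copy Magohb had a mean of 6.62 in aADM2-tg, 4.97 in WT (log2 change 0.41) and did not pass (adjusted p = 0.0794). Ddx39b had 183, 162, 164, 181 and 188 normalised CPM in tg1 to tg5, against 142, 132, 137, 124 and 143 in WT1 to WT5. This RNA helicase acts in early spliceosome assembly and mRNA export, and the groups did not overlap. Ddx39b averaged 176 ± 11.7 in aADM2-tg and 135 ± 7.68 in WT (SD, n = 5 each), with a log2 change of 0.38 (SE 0.064, edgeR adjusted p = 0.00330). Its paralog Ddx39a rose by 0.45 on the log2 scale (19.8 in aADM2-tg, 14.6 in WT). For Pnn, tg1 to tg5 gave 158, 139, 129, 143 and 145 normalised CPM, against 115, 93.5, 113, 105 and 112 in WT1 to WT5. Pinin is a peripheral junction protein, and it too rose without overlap. Means were 143 ± 10.7 in aADM2-tg and 108 ± 8.81 in WT (SD, n = 5 each), a log2 change of 0.41 (SE 0.074, edgeR adjusted p = 0.00411). Rnps1 (51.98 in aADM2-tg, 44.8 in WT) and the cap-binding gene Ncbp2 (68.5 in aADM2-tg, 56.3 in WT) rose with overlap, and Casc3 did not pass (log2 change 0.10).

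SR proteins carry runs of arginine and serine and act as splicing activators. Of 12 tested genes 7 rose and 0 fell; Srsf12 was too low to test (0.17 normalised CPM in both groups). Srsf3 stood at 161, 170.4, 217, 199 and 209.6 normalised CPM in tg1 to tg5, against 137, 136, 131, 142 and 123 in WT1 to WT5. It showed the largest rise of the family, and tg1 and tg2 were lower than tg3 to tg5 but above all WT libraries. The mean of Srsf3 was 191 ± 24.6 in aADM2-tg and 134 ± 7.09 in WT (SD, n = 5 each; log2 change 0.52, SE 0.089, edgeR adjusted p = 0.00342). Srsf2 had 189, 169.7, 167, 186 and 198 normalised CPM in tg1 to tg5, against 127, 132, 151, 131 and 140.2 in WT1 to WT5. Srsf2 overlaps Mfsd11 on the opposite strand. Srsf2 averaged 182 ± 13.3 in aADM2-tg and 136 ± 9.34 in WT (SD, n = 5 each), with a log2 change of 0.42 (SE 0.069, edgeR adjusted p = 0.00293). For Srsf1, tg1 to tg5 gave 299, 306, 274, 309 and 303 normalised CPM, against 244, 235, 228, 243 and 232 in WT1 to WT5. The founding member of the family likewise had no overlap between the groups. Means were 298 ± 14.2 in aADM2-tg and 236 ± 7.06 in WT (SD, n = 5 each), a log2 change of 0.34 (SE 0.054, edgeR adjusted p = 0.00260). Srsf6 (255 in aADM2-tg, 209 in WT), Srsf7 (102 in aADM2-tg, 81.5 in WT), Srsf9 (32.96 in aADM2-tg, 27.1 in WT) and Tra2b (117 in aADM2-tg, 97.8 in WT) rose. Srsf5, the member with the highest level per length of all splicing genes (129 FPKM, normalised counts per kilobase of exon and 1000000 reads, in aADM2-tg and 115 in WT), did not pass (log2 change 0.17), nor did Srsf4 (log2 change 0.15), Tra2a (log2 change 0.068), Srsf10 (log2 change -0.083) or Rsrc1 (log2 change -0.14). With the duct score as a term, Srsf1, Srsf2, Srsf3, Srsf6 and Srsf7 kept their calls. Several SR genes are known to switch between a coding and a decayed isoform, which counts per gene do not separate.

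**Figure D4:**
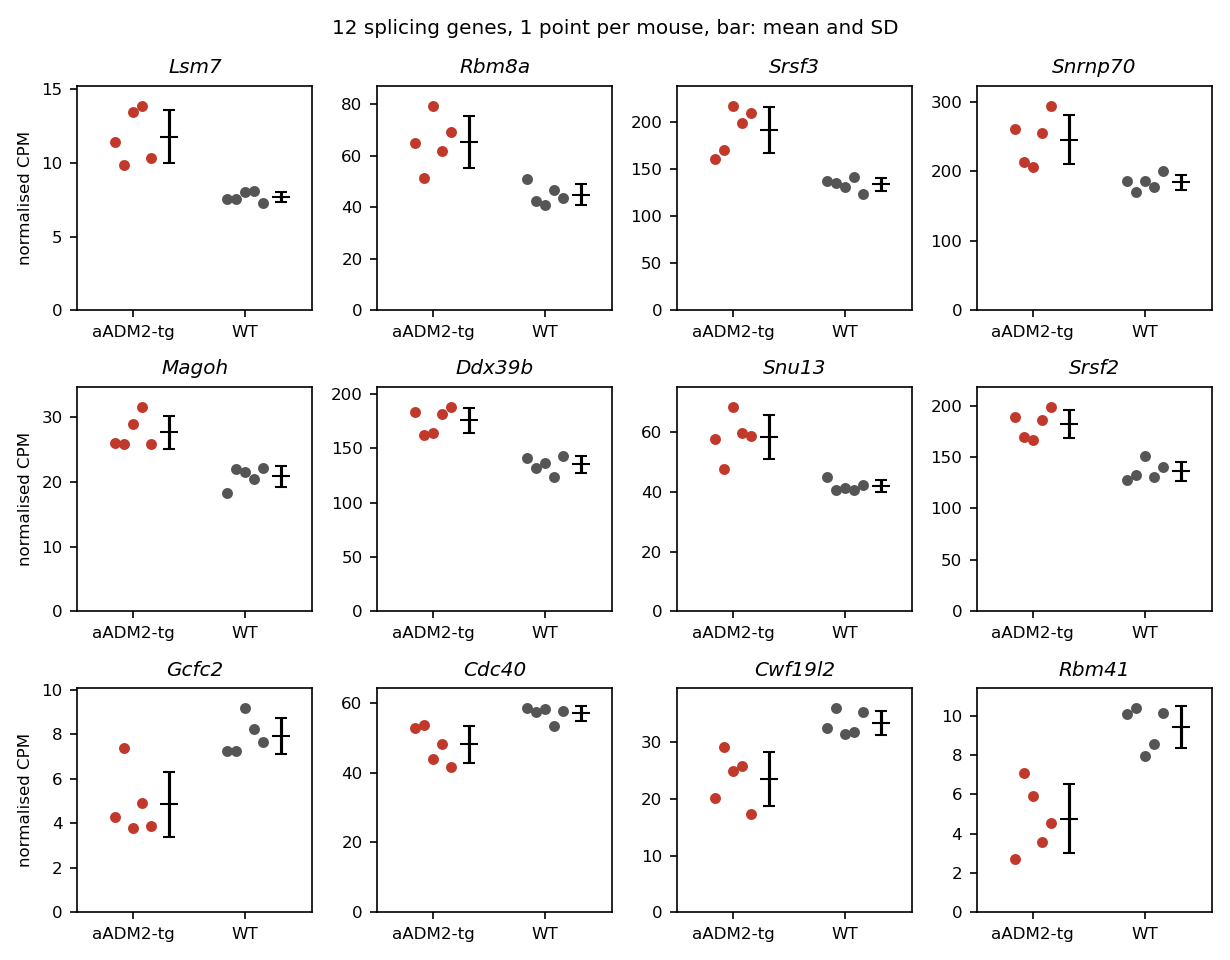
Normalised CPM (vertical axes, from 0) of 12 splicing genes, 1 point per mouse, aADM2-tg in red on the left of each panel and WT in grey, with mean and SD as black bars. The first 8 panels are genes that rose and the last 4 genes that fell; in Srsf3, for example, the 5 aADM2-tg mice lie at 161 to 217 and the WT mice at 123 to 142.

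The hnRNP proteins coat nascent RNA and often act against SR proteins. Of 8 genes 4 rose and 1 fell. Hnrnpa2b1 stood at 734, 702, 743, 721 and 765 normalised CPM in tg1 to tg5, against 650.2, 611, 616, 576 and 656 in WT1 to WT5. It was the most abundant hnRNP gene of the list (111 FPKM in aADM2-tg and 94.4 in WT), and the groups did not overlap. The mean of Hnrnpa2b1 was 733 ± 23.8 in aADM2-tg and 622 ± 32.6 in WT (SD, n = 5 each; log2 change 0.24, SE 0.059, edgeR adjusted p = 0.0155). Hnrnph3 (62.02 in aADM2-tg, 47.1 in WT; log2 change 0.40), Hnrnpa3 (109 in aADM2-tg, 92.6 in WT) and Hnrnpc, which binds uridine runs (194 in aADM2-tg, 159 in WT), rose. Syncrip, known as hnRNP Q, fell (170.3 in aADM2-tg, 197 in WT; log2 change -0.21). Hnrnpa1 (log2 change 0.063), Hnrnpk (log2 change 0.071) and Hnrnpr (log2 change -0.038) did not pass the test. Hnrnpa1 has 12 processed copies among the members at 5.54% of its level in sum.

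Among other regulators of exon choice (the NOVA and RBM4 proteins and the paraspeckle proteins) 1 of 7 genes rose and 1 fell. Nova2 had 22.6, 16.01, 17.3, 23.5 and 27.5 normalised CPM in tg1 to tg5, against 12.6, 10.7, 11.9, 12.7 and 17.4 in WT1 to WT5. NOVA proteins are best known as neuronal splicing regulators. Nova2 averaged 21.4 ± 4.73 in aADM2-tg and 13.1 ± 2.57 in WT (SD, n = 5 each), with a log2 change of 0.71 (SE 0.17, edgeR adjusted p = 0.0138). The highest WT library, WT5, lay above the lowest aADM2-tg libraries. Rbm4 fell at a low level (3.43 in aADM2-tg, 5.23 in WT; log2 change -0.61); it overlaps the entry Gm21992 on its strand, and its adjusted p was above 0.05 in 8 of the 10 fits that leave out a library. The widely expressed paraspeckle genes Sfpq (145 in aADM2-tg, 188 in WT; log2 change -0.37) and Nono (163 in aADM2-tg, 158 in WT; log2 change 0.039) did not pass, nor did Nova1 (log2 change 0.11). Prpf4b, the only kinase gene that the rule selects, had a mean of 148 in aADM2-tg, 159 in WT and did not pass either.

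Of 21 tested coding members outside these classes 5 rose and 0 fell. Naa12, an N-terminal acetyltransferase entry, had the lowest adjusted p of all members (0.00206; log2 change 0.47, with 67.04 in aADM2-tg, 48.5 in WT); it overlaps the tri-snRNP gene Txnl4a on the same strand. Mettl3, the catalytic subunit of the m6A RNA methylase, rose (15.3 in aADM2-tg, 11.9 in WT), whereas its partner Mettl14 did not pass (log2 change -0.048). Rbm6 (90.4 in aADM2-tg, 73.5 in WT), Ubl5 (43.4 in aADM2-tg, 34.1 in WT) and Raver2 (44.6 in aADM2-tg, 36.6 in WT) rose. Pabpc1, a poly(A)-binding protein gene, had all aADM2-tg libraries below all WT libraries without passing (486 in aADM2-tg, 550.3 in WT; adjusted p = 0.0614). Its retrogene Pabpc2, known from male germ cells in the mouse, was too uneven to pass the filter. It had 0, 0, 0, 0 and 0.0600 normalised CPM in tg1 to tg5, against 0.116, 6.78, 4.24, 0.436 and 4.94 in WT1 to WT5, with the germ cell gene Prm1 at 0 to 0.526 in aADM2-tg and 0.289 to 29.2 in WT.

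Among the 225 pseudogene members 120 had no counts at all, and 19 were tested, of which 1 rose. By sequence, 217 align over at least 50% of their length to 1 of 64 coding members, with a median identity of 90.6%, and 15 coding members have 5 copies or more. For Gm9761, tg1 to tg5 gave 2.52, 2.63, 4.08, 2.84 and 3.36 normalised CPM, against 1.74, 1.80, 1.70, 1.58 and 1.44 in WT1 to WT5. This pseudogene is 99.6% identical to Srsf3 over its whole length, so its reads cannot be told from those of Srsf3 with certainty. Means were 3.09 ± 0.644 in aADM2-tg and 1.65 ± 0.141 in WT (SD, n = 5 each), a log2 change of 0.90 (SE 0.18, edgeR adjusted p = 0.00684). Together the 6 copies of Srsf3 reached 1.46% of its level. All pseudogene members summed to 56.45 ± 4.67 normalised CPM in aADM2-tg and 49.9 ± 1.22 in WT (SD, n = 5 each).

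Whether a splicing gene rose or fell went along with its length. Members that rose had a median exonic length of 3550 bases, those that fell 9366 and those that did not pass 4999; over all tested genes these were 3229, 6819 and 3826. Of 47 coding members under 3000 bases 26 rose and 0 fell, of 67 between 3000 and 6000 bases 31 rose and 1 fell, and of 51 at 6000 or more 12 rose and 7 fell. Over all tested genes 1036 of 5834 rose and 254 fell in the shortest class, and 377 of 4629 rose and 1223 fell in the longest. When the trend of each library with length was removed, 69 members were higher (58 of them among the 70) and 1, Rbm41, was lower, beside 15.7% and 5.64% of all tested genes. That correction raised the median of all genes to 0.145 and of the members to 0.31, a difference of 0.17, beside 0.20 without it. Of the 8 members that had fallen 3 turned above 0 under it, among them Syncrip (0.149) and Rbm5 (0.150), and Cdc40 came to -0.0030.

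**Figure D5:**
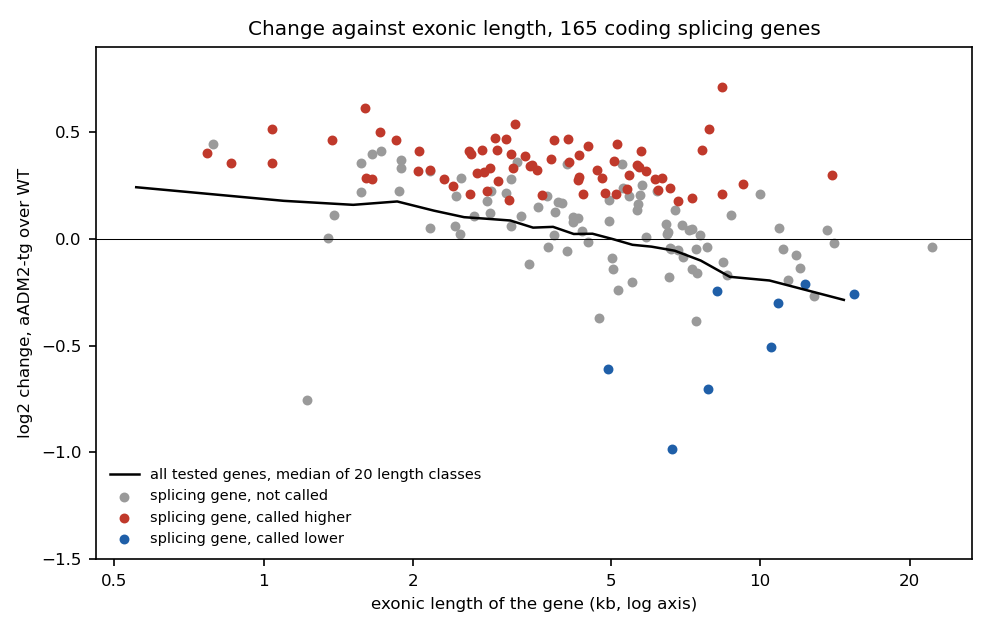
Log2 change of aADM2-tg over WT (vertical axis) against exonic gene length in kilobases (horizontal, log axis) for the 165 tested coding members, red where called higher, blue where called lower and grey where not called; the black line joins medians of all tested genes in 20 length classes. Red points lie mostly on the left and blue points on the right, with median lengths of 3550 and 9366 bases, and most red points lie above the line.

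Other steps of RNA handling were followed through lists by role, which no test compared with the splicing genes. Beside them, 13.8% of all tested genes rose and 12.7% fell, with a median log2 change of 0.018. In lists of 17 to 23 genes a few calls in either direction can lie near these shares. Of 20 tested genes of snRNP assembly outside the rule 6 rose and 0 fell, led by Wdr77, a subunit of the methylosome that modifies Sm proteins (36.9 ± 2.09 normalised CPM in aADM2-tg and 27.4 ± 1.9 in WT; it overlaps the more abundant Atp5pb on the opposite strand), and Gemin7 of the SMN complex (25.7 ± 2.98 and 18.49 ± 1.197). Of 23 genes of snRNA transcription and the Integrator 5 rose, among them Ints1 (log2 change 0.33), and 2 fell, among them Ice1 (log2 change -0.30, and 0.035 with the length trend removed). In cleavage and polyadenylation 3 of 19 rose, with Pabpn1 (0.44) and Cpsf1 (0.23), and 3 fell. In mRNA export 4 of 19 rose, led by Sarnp (0.42; it overlaps Dnajc14 on its own strand, which had more counts) and Gle1 (0.37), and 5 fell. Of 17 genes of nonsense-mediated decay 0 rose by edgeR (0 also at an unadjusted p under 0.05), and 3 fell, among them the decapping enzyme gene Dcp2 (log2 change -0.59) and the exonuclease gene Xrn1 (-0.53). Splicing factors that were listed by role but lack the ontology term numbered 148 tested, of which 29 rose (19.6%) and 20 fell (13.5%), with a median of 0.029. These values lay nearer to those of all tested genes than the values of the members did. Genes with rRNA processing, which the rule leaves out, had 55 of 136 higher (40.4%) and 2 lower, with a median of 0.25.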

How the data were processed

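Poly(A)-selected RNA of the visceral fat of 10 mice was sequenced, and the deposited table gives raw read counts per gene, 1 count column per mouse, per the file headers. HISAT2 2.2.1 and HTSeq 0.6.1 are the tools in the submitters' processing notes; build, annotation and strand use were not given in the sources used here. The table also holds the deposited exonic gene size in bases, another measure from which FPKM was computed here; 10 deposited FPKM columns were not used. Groups follow the sample labels and the lower of the 2 header lines. Titles and descriptions of transgenic samples 3, 4 and 5 disagree, so tg3 to tg5 are named by the column.

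Counts were tested in R 4.3.3 with edgeR 4.0.16 (filterByExpr, TMM, glmQLFit and glmQLFTest, group as the only term, Benjamini-Hochberg adjustment over 16591 genes, threshold 0.05). Normalised CPM are counts per 1000000 of the TMM-scaled library; deviations used log2(normalised CPM + 0.5). Alternatives were DESeq2 size factors, DESeq2 1.42.0, other filters, left-out libraries, the replicate number as a block, a duct score, a loess length correction (span 0.3) and, added after seeing the data, unscaled library totals and the libraries low in duct RNA. The edgeR step was tested on simulated data. Members, classes, marker and motif lists and tests were chosen with earlier results of these data known. Named genes are a chosen set, up to 2 called genes per class or outside list by adjusted p, and the 6 largest rises and falls without overlap at 1 FPKM or more; other members are given to account for their class. A gene that this rule names is not reported here. Pabpc2 and Gm9761 were singled out after their values were seen. Nothing says how samples were drawn beyond 5 mice per group, so p-values measure the spread between these libraries. Pseudogenes were aligned with blastn (BLAST+ 2.17.0), and figures were drawn with matplotlib 3.10.9. Floors cover counting error only, and reads are not independent molecules.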

Additional observations from a re-analysis of the deposited data

Results flagged for a closer look

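Among 116 groups of 5 libraries checked (43 named members and 15 class sums, in both groups), 2 held a library far from the others, where chance alone gives about 1 in 20. The summed level of the tri-snRNP class in WT2 was 924.1 normalised CPM, with the other WT libraries at 977.7 to 996.1. The summed level of the pseudogene members in WT4 was 52.05 normalised CPM, with the other WT libraries at 49.02 to 49.76.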

How the results depend on the processing

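The direction of the members' median held in every alternative run, at 0.15 to 0.31 on the log2 scale (all tested genes -0.11 to 0.145). With the duct score as a term, 24 splicing genes were higher and 1 lower, 849 and 1342 of all tested genes, and 12 and 19 of the other RNA-handling genes. With unscaled library totals, 42 splicing genes and 21 other RNA-handling genes were higher, and the median of all tested genes moved to -0.044. The members lay 0.195 above it, as with TMM. Scaling moves all genes of a library alike, so this distance had to stay and is no separate support. Among libraries low in duct RNA alone, 0 splicing genes were higher and 0 lower, 1 and 34 of all tested genes, and 0 and 0 of the other RNA-handling genes; 5 libraries entered, 1 of them WT. With the length trend removed, 1 splicing gene, 935 of all genes and 6 other RNA-handling genes were lower, and the changes of 3 of the 8 splicing genes that had fallen, among them Syncrip (0.149) and Rbm5 (0.150), and of Ice1 (0.035) turned above 0; the cause was not tested. Without WT1 and tg2, 3195 of all genes were higher and 3622 lower, in a fit where group and duct RNA cannot be told apart.

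Leaving out 1 library in turn gave 43 to 83 splicing genes higher and 4 to 12 lower. The higher count moved over 1.5 times without tg4 (45), WT2 (46), WT3 (43) or WT5 (44), and the lower one without tg1 (4), tg3 (5), tg4 (5), WT1 (5), WT2 (5), WT3 (4) or WT5 (5). Over all genes this gave 1391 to 3250 higher and 1558 to 3515 lower, and over the other RNA-handling genes 26 to 59 higher and 27 to 47 lower. The replicate number as a block gave 49 splicing genes higher (4 of the Prp19 class and 6 of the U2 class) and 6 lower, and 28 other RNA-handling genes higher. Deviations of same-numbered libraries correlated at 0.489, 0.671, -0.375, -0.254 and 0.0397. These values have no common sign, and the libraries also differ in duct RNA, so whether the numbers pair the mice cannot be told from them. DESeq2 gave 76 higher and 12 lower, its size factors in edgeR 66 and 10, no filter 55 and 7, and a mean of at least 10 CPM 57 and 11. Depth limits genes near the filter, such as Rbm4 and Snrnp25.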
